A study of Danio rerio with 6 samples.

Results

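RNA of cells sorted for an olig2 reporter was compared with RNA of cells sorted for a dbx1b reporter, both taken from zebrafish trunks at 14 hours post fertilisation. The comparison used 4 of the 6 libraries of the study: 2 libraries of GFP-positive cells from TgBAC(olig2:GFP) embryos, called olig2 libraries here, and 2 libraries of GFP-positive cells from TgBAC(dbx1b:GFP) embryos, called dbx1b libraries. The remaining 2 libraries, from TgBAC(nkx2.2a:memGFP) embryos, entered the statistical fit, and their values are given only where they are named. The libraries were chosen by their labels and not by any measured value. All embryos were wild type apart from the reporter, and all were handled alike: brain and tail were cut away, the trunk was dissociated mechanically, GFP-positive cells were sorted by flow cytometry, and RNA was taken from the frozen pellet. The reporters are bacterial artificial chromosome (BAC) transgenes that place GFP under the regulatory sequence of the named gene. Because GFP protein can outlast the transcription of its gene, the gate holds cells that make the reporter or recently made it.

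The ventral neural tube is divided into stacked progenitor domains, each marked by its own set of transcription factors that repress the sets of neighbouring domains in response to Sonic hedgehog secreted from the notochord and floor plate. Olig2 marks the pMN domain, which gives rise to motor neurons and later to oligodendrocytes, whereas Dbx1 marks the p0 domain, which lies farther from the Hedgehog source and gives rise to V0 interneurons. The nkx2.2a-expressing p3 domain lies on the ventral side of pMN. At this age the trunk of the zebrafish embryo also holds somites that are still forming from presomitic mesoderm.

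The olig2 libraries held 3254516 and 4171691 fragments mapped to transcripts, against 5902983 and 6933417 in the dbx1b libraries. Of all reads, 19.4% and 22.1% were mapped in the olig2 libraries, against 33.4% and 29.7% in the dbx1b libraries. The olig2 libraries resembled each other less than the dbx1b libraries did. Across the 19129 gene symbols tested, Spearman's correlation was 0.754 between the olig2 libraries and 0.884 between the dbx1b libraries, and olig2 library 1 correlated at 0.760 and 0.775 with the dbx1b libraries. Among symbols of at least 10 CPM (reads per 1000000 mapped reads) in a sort, 41.4% differed at least 2-fold between the olig2 libraries and 20.9% between the dbx1b libraries. The labels do not say that the libraries of a sort came from separate pools of embryos. A p-value here therefore sets the difference between sorts only against the spread between libraries of a sort, which may be technical. The reporter line, the sort and the group coincide, so their contributions cannot be told apart.

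No symbol passed an adjusted p of 0.05 in edgeR's quasi-likelihood test of olig2 over dbx1b, a call rate of 0%. The same test gave 708 higher and 1115 lower symbols at an unadjusted p under 0.05. DESeq2's Wald test, run as an alternative, called 639 symbols on the same counts: 282 higher (1.47% of those tested) and 357 lower (1.87%) in the olig2 libraries. Differences are therefore described below by their values in each library. Both olig2 libraries lay above both dbx1b libraries for 3493 symbols (18.3%) and below them for 4857 (25.4%). With 2 libraries per sort such an order is common even where the sorts do not differ. A lack of overlap is therefore only a description, here and for single genes below. A stricter separation, in which the nearest olig2 and dbx1b libraries were at least 2-fold apart after 0.5 CPM was added, held for 1076 symbols above (5.62%) and 1805 below (9.44%). "Separated" below means this stricter form. Of the 639 symbols called by DESeq2, 603 were separated.

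**Figure D1:**
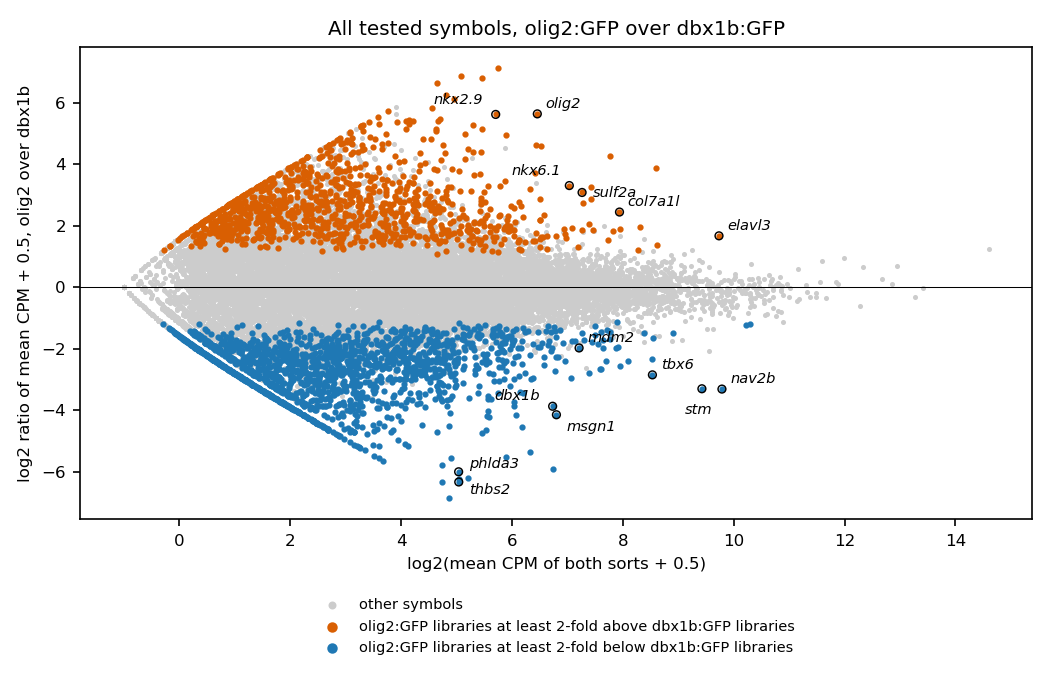
Each point is 1 tested symbol. The x axis is the log2 mean CPM over both sorts plus 0.5, and the y axis is the log2 ratio of the mean CPM plus 0.5 in olig2 libraries over dbx1b libraries. Orange symbols (1076) lay at least 2-fold above in both olig2 libraries and blue symbols (1805) at least 2-fold below, and the genes ringed in black are described in the text.

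The reporter genes followed the labels. Olig2, the bHLH factor that specifies motor neuron progenitors, had 219 and 125 CPM in the olig2 libraries, against 1.80 and 4.08 CPM in the dbx1b libraries. Dbx1b, the homeodomain factor of p0 progenitors, had 17.0 and 9.22 CPM in the olig2 libraries, against 182 and 215 CPM in the dbx1b libraries. For both genes each library of the sort lay far from both libraries of the other sort. The log2 fold change of olig2 over dbx1b libraries was 5.86 ± 0.87 (SE, adjusted p = 0.170) for olig2 and -3.92 ± 0.76 (adjusted p = 0.296) for dbx1b. DESeq2 gave similar fold changes, 5.92 and -3.86, and adjusted p of 3.1e-11 and 5.1e-05. A BAC transgene can carry sequence of its own locus, and reads from a transgene copy and from the endogenous gene cannot be told apart in these counts. In bulk RNA, fewer cells of a type and less RNA per cell cannot be told apart either.

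The pMN and motor neuron list was higher in olig2 libraries than in dbx1b libraries on balance. Of its 17 members in the files 11 were tested, with a median log2 fold change of 1.66 against -0.05 over all symbols. Separated above were 4 (36.4%, against 5.62% of all symbols) and below 0 (against 9.44%). DESeq2 called 4 of the 11 higher and 0 lower, where it called 1.47% and 1.87% of all symbols. Olig2, the gene of the sorting reporter, was among both the separated and the called members. Nkx6.1, a homeodomain repressor that in mouse is needed for normal Olig2 expression, had 294 and 181 CPM in olig2 libraries, against 27.1 and 19.8 CPM in dbx1b libraries (log2 fold change 3.34 ± 0.47, adjusted p = 0.146). Its paralog nkx6.2 had 135 and 144 CPM, against 32.1 and 57.5 CPM. The vesicular acetylcholine transporter gene slc18a3a, a marker of cholinergic neurons, was at low levels, with 14.9 and 9.45 CPM in olig2 libraries, against 0 and 0.141 CPM in dbx1b libraries, a single fragment. Its ratio of olig2 over dbx1b was 150, with an exact 95% interval of 26.2 to 5990 for counting error only. These genes did not overlap between the sorts. Ebf2, a factor of differentiating neurons, had 90.7 and 70.9 CPM in olig2 libraries, against 37.9 and 12.5 CPM in dbx1b libraries, without overlap. None of the tested mnx and isl genes lay above both dbx1b libraries in both olig2 libraries. The motor neuron homeobox gene mnx1 had 28.8 and 4.49 CPM in olig2 libraries, against 33.4 and 71.1 CPM in dbx1b libraries, so both olig2 libraries lay below. The LIM homeobox gene isl1 had 3.03 and 22.5 CPM, against 3.41 and 11.2 CPM, and its libraries overlapped. Libraries also overlapped for isl2a (0 and 29.1 CPM, against 28.2 and 23.1 CPM) and mnx2b (0.91 and 11.3 CPM, against 1.44 and 9.42 CPM). So did those of isl2b, which was low in all of them. The list's summed level was 803 and 606 CPM in olig2 libraries, against 167 and 213 CPM in dbx1b libraries. Of these sums olig2 itself supplied 219 and 125 CPM, against 1.80 and 4.08 CPM. Nkx6.3 and slc18a3b were at 0 in all 4 libraries.

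Several genes of the p3 domain, next to pMN, were also higher in olig2 libraries. Nkx2.9, a homeodomain factor of p3 and floor plate, had 102 and 101 CPM in olig2 libraries, against 0.180 and 2.95 CPM in dbx1b libraries (log2 fold change 5.98 ± 1.13, adjusted p = 0.296). Nkx2.2a, which defines p3, was low in all 4 libraries but separated, with 8.19 and 26.5 CPM, against 0.539 and 1.26 CPM. Its paralog nkx2.2b had 26.4 and 80.1 CPM, against 0.718 and 9.56 CPM. All 3 Nkx2 genes lay at least 2-fold above in both olig2 libraries. Sim1a, a bHLH-PAS factor made by V3 interneurons, had 23.7 and 30.0 CPM, against 1.26 and 5.34 CPM. In the nkx2.2a libraries, sorted for a p3 reporter, sim1a had 6.3 and 2.71 CPM, under both olig2 libraries. Its paralog sim1b had 0.303 and 0 CPM in olig2 libraries, against 0.18 and 0.984 CPM in dbx1b libraries, with overlap. Floor plate genes did not move as a block. Ntn1b, a netrin that attracts commissural axons, was higher (106 and 75.2 CPM, against 11.5 and 23.5 CPM), but shhb, a Hedgehog ligand of the floor plate, was lower (0.303 and 2.36 CPM, against 15.3 and 18 CPM). The forkhead gene foxa2 had 21.8 and 6.85 CPM, against 9.70 and 35.0 CPM, and shha had 32.2 and 21 CPM, against 26.0 and 44.8 CPM, both with overlapping libraries. Over the p3 and floor plate list of 20 tested members, 7 were separated above (35%, against 5.62% of all symbols) and 3 below (15%, against 9.44%). The list's median was 0.62, which was -0.08 when olig2 library 1 was left out.

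Genes of the p0 to p2 domains leaned the other way. Of 27 tested members 1 was separated above (3.7%, against 5.62% of all symbols) and 9 below (33.3%, against 9.44%). Without the 2-fold requirement 3 lay above in both olig2 libraries (11.1%, against 18.3%) and 10 below (37%, against 25.4%). The median log2 fold change was -0.79. DESeq2 called 0 higher and 4 lower, where it called 1.47% and 1.87% of all symbols. Dbx1b, the gene of the sorting reporter, was among the members below and among those called. Dbx1a, the paralog of dbx1b, had 2.43 and 53.9 CPM in olig2 libraries, against 139 and 124 CPM in dbx1b libraries. The 2 olig2 libraries were thus far apart for dbx1a, though both lay below the dbx1b libraries. Prdm12b, a zinc finger gene that in zebrafish promotes p1 fate, had 4.86 and 1.42 CPM, against 81.4 and 23.9 CPM. Irx3a, an Iroquois homeobox gene of intermediate progenitors, had 64.3 and 62.2 CPM, against 165 and 172 CPM. Its paralog irx3b went the other way, with 190 and 147 CPM, against 130 and 106 CPM, without overlap but less than 2-fold apart. For prdm12b and irx3a both olig2 libraries were lower by at least 2-fold. The V0 neuron factors evx1 and evx2, both counted among the 9 separated below, had no reads in either olig2 library. In dbx1b libraries evx1 had 3.59 and 0.984 CPM and evx2 had 2.16 and 2.39 CPM. With the 0 set to a floor of 3 fragments per library, they were at least 2.51-fold and 2.50-fold lower than their dbx1b means. In olig2 library 1 that floor was 0.910 CPM, close to the 0.984 CPM of evx1 in dbx1b library 2. DESeq2 called neither gene. Bounds against this floor, here and below, use the mean of the other sort, so its lower library can lie closer to the floor. They cover counting error only and not the spread between libraries of a sort. That spread can be wide: lhx1b, of the same list, had 0 and 56.7 CPM in olig2 libraries. Some broad progenitor genes of this list did not separate: pax6a, an eye and neural tube factor, had 131 and 156 CPM, against 163 and 141 CPM. Prdm14, which in zebrafish is linked to motor neuron axon growth, was the separated member above, with 34.9 and 9.69 CPM, against 2.16 and 3.65 CPM.

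The dorsal neural tube list also leaned to the dbx1b libraries, with a median of -1.04. Of 27 tested members 2 were separated above (7.41%, against 5.62% of all symbols) and 6 below (22.2%, against 9.44%). Pax3a, a paired factor of dorsal progenitors and neural crest, had 8.50 and 18.7 CPM in olig2 libraries, against 95 and 61.8 CPM in dbx1b libraries. Pax7b, of the same family, had 7.28 and 0 CPM, against 43.8 and 60.9 CPM. Lbx1b, a homeobox gene of dorsal interneurons, had 4.86 and 5.44 CPM, against 29.6 and 25.4 CPM. The olig2 libraries lay below for all 3. Olig3, the dorsal Olig family member, went the other way, with 61.0 and 22.0 CPM, against 5.39 and 1.55 CPM. Olig1, which neighbours olig2 in vertebrate genomes and acts in oligodendrocytes, had 72.2 and 26.7 CPM in olig2 libraries. It had no read in either dbx1b library, and the mean of the olig2 libraries was at least 91.8-fold higher against the floor. That bound covers counting error only, and the nkx2.2a libraries had 0.157 and 91.4 CPM of olig1.

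Transcription factors were separated in both directions. Of 791 tested transcription factors, found by gene family names, 48 were separated above (6.07%, against 5.62% of all symbols) and 106 below (13.4%, against 9.44%). Their median log2 fold change was -0.23. Homeobox genes outside the Hox clusters were separated in both directions, 15 above (9.38%) and 25 below (15.6%) of 160. The 38 forkhead genes had 0 above and 8 below (21.1%). The 18 T-box genes had 0 and 5 (27.8%), and the 22 ETS genes 0 and 5 (22.7%). Among the 96 bHLH genes, a family that holds olig2, the proneural factors and the segmentation clock genes, 10 were separated above (10.4%) and 13 below (13.5%).

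**Figure D2:**
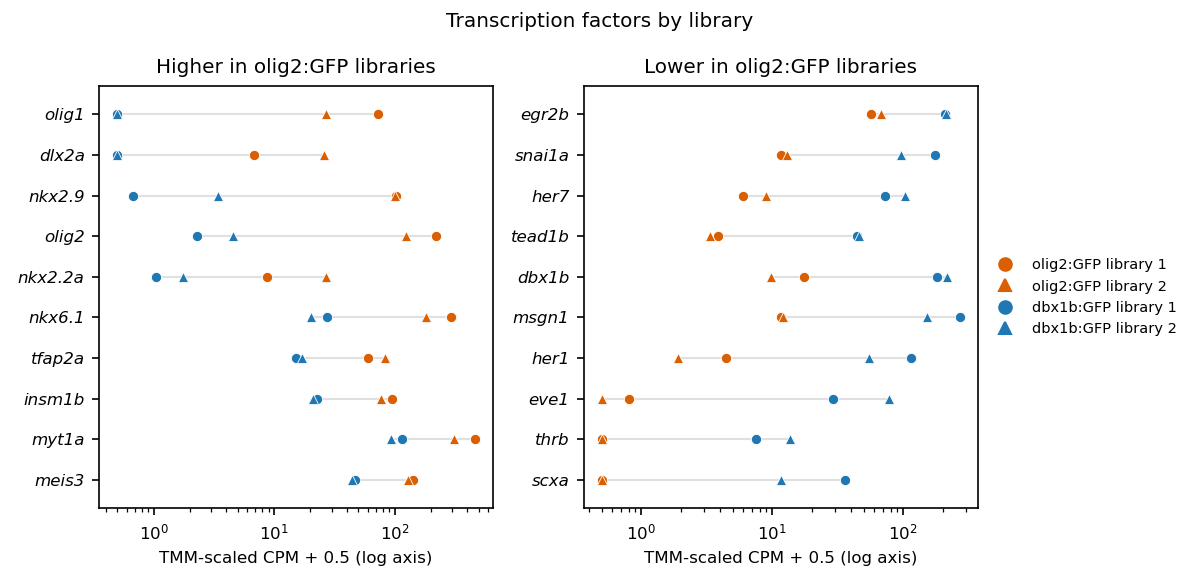
The 10 named transcription factors with the smallest p in each direction, in order of fold change. Each point is 1 library (orange, olig2:GFP; blue, dbx1b:GFP) at its CPM plus 0.5 on a log axis; in every row the orange points lie to 1 side of the blue points, which the naming rule required.

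Neuronal differentiation factors stood among the higher transcription factors. Myt1a, a zinc finger factor of early neurons, had 464 and 310 CPM in olig2 libraries, against 115 and 92.5 CPM in dbx1b libraries (log2 fold change 1.90 ± 0.44, adjusted p = 0.355). Insm1b, a zinc finger repressor active as progenitors leave the cycle, had 95 and 76.8 CPM, against 22.1 and 20.7 CPM. Elavl3, the RNA-binding HuC protein of newborn neurons, had 1374 and 1223 CPM, against 455 and 358 CPM (log2 fold change 1.68 ± 0.34, adjusted p = 0.315). Each of these 3 genes was higher in both olig2 libraries. Of 26 tested members of the neuron list 6 were separated above (23.1%, against 5.62% of all symbols) and 1 below (3.85%, against 9.44%). The median was 0.75. The list's members were not all higher: nhlh2, a bHLH factor of young neurons, had 59.2 and 34.3 CPM, against 6.47 and 5.20 CPM, whereas onecut1, a homeobox factor of several neuron types, had 2.43 and 3.78 CPM, against 21.7 and 19.7 CPM. The neural progenitor list was balanced, with 1 of 29 members separated above (3.45%), 2 below (6.9%) and a median of -0.02. Its intermediate filament gene nes, made by neural progenitors, had 224 and 156 CPM, against 77.0 and 46.2 CPM, and the SoxB1 gene sox19b had 218 and 182 CPM, against 264 and 234 CPM.

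Meis3, dlx2a and tfap2a completed the higher transcription factors. Meis3, a Hox cofactor of hindbrain and spinal cord, had 143 and 129 CPM in olig2 libraries, against 46.9 and 43.9 CPM in dbx1b libraries. Tfap2a, a factor of neural crest and epidermis, had 59.8 and 82.0 CPM, against 14.7 and 16.4 CPM. Dlx2a, a homeobox gene of forebrain and neural crest, had 6.37 and 25.5 CPM in olig2 libraries and no read in dbx1b libraries. By the mean of the olig2 libraries it was at least 29.6-fold higher against the floor. Both olig2 libraries were higher for all 3. The neural crest list itself was mixed, with 2 of 14 members separated above (14.3%, against 5.62% of all symbols) and 4 below (28.6%, against 9.44%).

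The transcription factors lower in olig2 libraries were led by genes of presomitic mesoderm, the tissue from which somites form. Msgn1, a bHLH factor that drives presomitic differentiation, had 11.2 and 11.6 CPM in olig2 libraries, against 270 and 152 CPM in dbx1b libraries (log2 fold change -4.21 ± 0.58, adjusted p = 0.146). The segmentation clock repressor her1 had 3.94 and 1.42 CPM, against 115 and 54.3 CPM, and its partner her7 had 5.46 and 8.51 CPM, against 71.7 and 103 CPM. Both olig2 libraries lay far below both dbx1b libraries for these 3 genes. Tbx16, a T-box factor needed for mesoderm cells to leave the tailbud, had 6.37 and 0.236 CPM, against 150 and 163 CPM. Tbx6, a paralogous paraxial mesoderm factor, had 116 and 63.6 CPM, against 632 and 670 CPM. Eve1, a posterior homeobox gene, had 0.303 and 0 CPM, against 28.4 and 76.9 CPM. With 1 fragment in the olig2 libraries the ratio of dbx1b over olig2 for eve1 was 418, with an exact 95% interval of 74.8 to 16547 for counting error only.

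Over the whole presomitic mesoderm and tailbud list, 16 of 27 tested members (59.3%, against 9.44% of all symbols) were separated below in olig2 libraries. Separated above were 0, against 5.62% of all symbols. The median log2 fold change was -2.81, or -2.74 with members at 0 set to their bound. DESeq2 called 12 lower and 0 higher, where it called 1.87% and 1.47% of all symbols. The list was chosen with earlier results of these data known, so these counts are a description and not a test. Brachyury (ta), the T-box gene of notochord and tailbud, had 8.50 and 48.0 CPM in olig2 libraries, against 143 and 235 CPM in dbx1b libraries. Not every member followed: the caudal gene cdx4 and the Notch ligand dld had overlapping libraries, and cdx1b had 11.5 and 5.91 CPM, against 4.85 and 3.51 CPM. The list's summed level was 1119 and 1082 CPM in olig2 libraries, against 3637 and 3407 CPM in dbx1b libraries, and mespbb was at 0 in all 4. Whether the dbx1b gate held presomitic or tailbud cells was not tested. Leaving out any 1 library moved the median between -3.36 and -2.31.

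**Figure D3:**
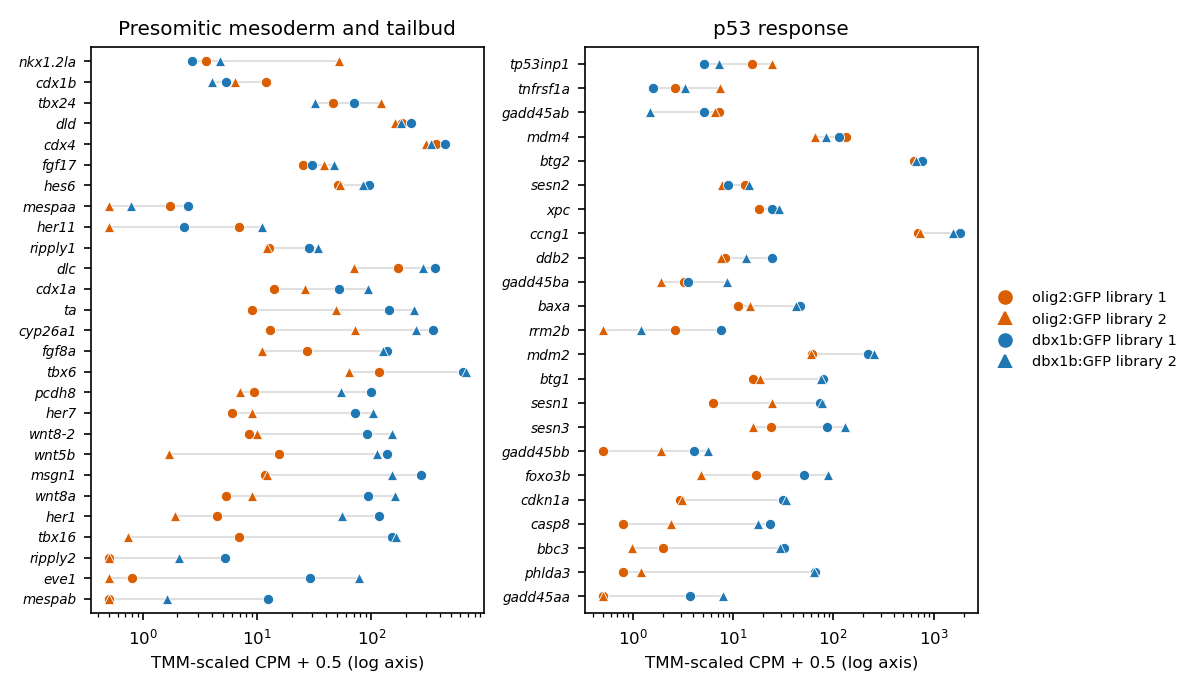
All tested members of the presomitic mesoderm and tailbud list (left) and 23 tested members of the p53 response list (right), ordered by fold change. Points are libraries (orange, olig2:GFP; blue, dbx1b:GFP) at CPM plus 0.5 on a log axis. Orange points lie at least 2-fold below blue points for 16 of 27 members on the left and 13 of 23 on the right.

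The other lower transcription factors came from several tissues. Snai1a, a zinc finger factor of mesoderm and neural crest migration, had 11.2 and 12.5 CPM in olig2 libraries, against 175 and 95.2 CPM in dbx1b libraries. Tead1b, a DNA-binding partner of Yap in the Hippo pathway, had 3.34 and 2.84 CPM, against 43.8 and 45.5 CPM. Egr2b, the Krox20 factor of hindbrain rhombomeres, had 56.7 and 66.7 CPM, against 209 and 210 CPM. The dbx1b libraries were close to each other for tead1b and egr2b. Scxa, a bHLH factor of tendon progenitors, and thrb, a thyroid hormone receptor, had no reads in olig2 libraries. They had 35.2 and 11.1 CPM and 7 and 13.2 CPM in dbx1b libraries. Against the floor they were at least 25.4-fold and 11.1-fold lower in olig2 libraries than the mean of the dbx1b libraries.

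Surface and secreted molecules had similar shares. Of 870 tested genes in adhesion, guidance, matrix and signalling families, 50 were separated above (5.75%) and 113 below (13.0%), with a median of -0.25. Of 115 guidance molecules 10 were separated above (8.70%) and 24 below (20.9%). Over all symbols the shares were 5.62% above and 9.44% below. Of 57 genes of the BMP, TGF-beta and Nodal families 1 was separated above (1.75%) and 14 below (24.6%). Of 58 Wnt family genes 0 were above and 8 below (13.8%), near the 13.0% of all surface and secreted genes tested. Matrix genes were closer to balance, with 15 above (8.15%) and 19 below (10.3%) of 184. Of the cadherins 2 were separated above and 2 below of 31 (6.45% each way), and of the protocadherins 1 above (1.64%) and 4 below (6.56%) of 61.

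**Figure D4:**
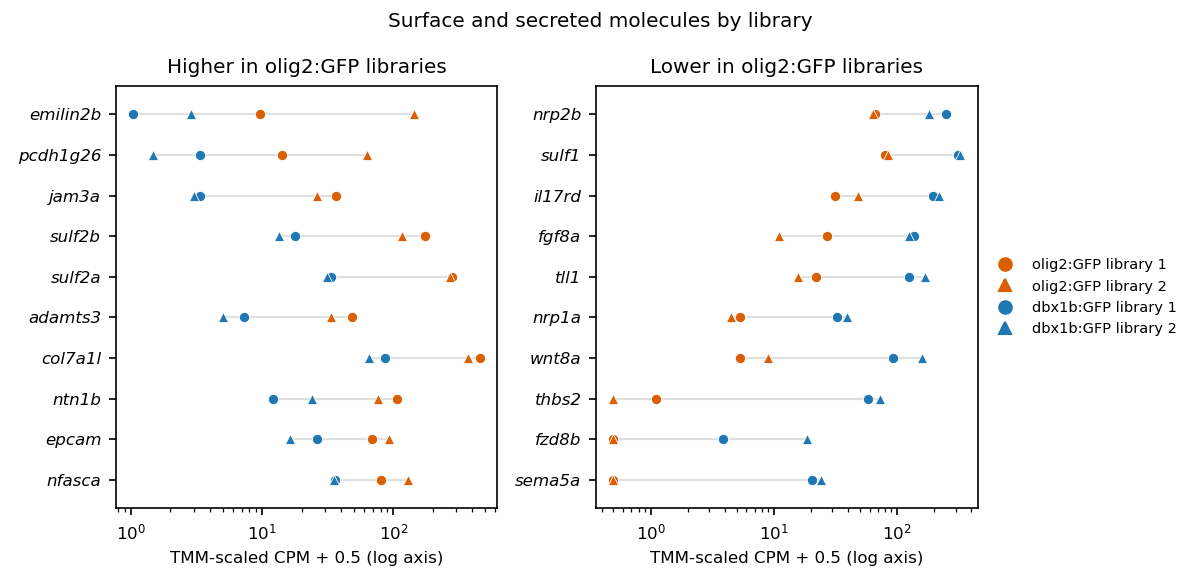
The 10 named surface or secreted genes with the smallest p in each direction, in order of fold change. Points are libraries (orange, olig2:GFP; blue, dbx1b:GFP) at CPM plus 0.5 on a log axis. The sulfatase genes sulf2a and sulf2b lie on the left panel and sulf1 on the right; emilin2b shows a wide gap between the 2 olig2 libraries.

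Heparan sulfate 6-O-endosulfatases, secreted enzymes that trim sulfate groups from heparan sulfate and so alter binding of Hedgehog, Wnt and FGF ligands, differed in direction within the family. Sulf2a had 280 and 269 CPM in olig2 libraries, against 33.2 and 30.5 CPM in dbx1b libraries (log2 fold change 3.11 ± 0.60, adjusted p = 0.296). Sulf2b had 175 and 116 CPM, against 17.4 and 12.9 CPM (3.26 ± 0.55, adjusted p = 0.263). Sulf1 had 79.2 and 83.7 CPM, against 312 and 327 CPM (-1.97 ± 0.36, adjusted p = 0.291). Sulf2a and sulf1 were each steady between the 2 libraries of a sort, and their libraries were at least 2-fold apart in opposite directions. DESeq2 called all 3, sulf2a and sulf2b higher and sulf1 lower. None of these directions changed under any alternative that was run, which their separation by at least 2-fold made likely in advance.

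The other named surface and secreted genes that were higher in olig2 libraries were matrix and adhesion genes. Col7a1l, related to the anchoring-fibril collagen of basement membranes, had 457 and 372 CPM in olig2 libraries, against 86.2 and 64.8 CPM in dbx1b libraries (2.46 ± 0.37, adjusted p = 0.173). Adamts3, a protease that in mammals processes procollagen, had 48.2 and 33.1 CPM, against 6.82 and 4.5 CPM. Emilin2b, an elastin-associated glycoprotein, had 9.10 and 143 CPM, against 0.539 and 2.39 CPM. Olig2 library 2 supplied most of the emilin2b difference, whereas col7a1l and adamts3 were even between olig2 libraries. Adhesion genes in the same group were jam3a, a junctional adhesion molecule (35.8 and 25.5 CPM, against 2.87 and 2.53 CPM), nfasca, a neurofascin of axons (80.4 and 128 CPM, against 35.6 and 34.6 CPM) and epcam, an epithelial adhesion molecule (68.6 and 91.7 CPM, against 25.7 and 15.7 CPM). Pcdh1g26, of the clustered protocadherins, had 13.7 and 62.2 CPM, against 2.87 and 0.984 CPM. Clustered protocadherins share exons, so counts of a single symbol of that cluster are uncertain.

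Several guidance and matrix genes were among the named surface and secreted genes that were lower in olig2 libraries. Nrp1a and nrp2b, neuropilin receptors for semaphorins and VEGF, had 4.86 and 4.02 CPM and 65.8 and 63.3 CPM in olig2 libraries, against 32.3 and 38.9 CPM and 251 and 181 CPM in dbx1b libraries. Sema5a, a transmembrane semaphorin, had no reads in olig2 libraries, against 19.8 and 23.9 CPM, at least 24-fold lower against the floor. Both olig2 libraries were lower for these 3 genes, and higher for the netrin ntn1b. Thbs2, a thrombospondin of the matrix, had 0.607 and 0 CPM, against 57.5 and 71.8 CPM. Its ratio of dbx1b over olig2 was 247, with an exact 95% interval of 68.0 to 2039 for counting error only. Tll1, a tolloid protease that releases BMP from its inhibitor Chordin, had 21.5 and 15.4 CPM, against 124 and 170 CPM. Both dbx1b libraries were high for thbs2 and tll1.

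Hedgehog pathway genes did not move together. Of 25 tested members 2 were separated above (8%, against 5.62% of all symbols) and 3 below (12%, against 9.44%), with a median of -0.51. Gli1, a transcriptional effector that Hedgehog signalling induces, had 224 and 163 CPM in olig2 libraries, against 96.1 and 128 CPM in dbx1b libraries. Its libraries did not overlap but were less than 2-fold apart, and its log2 fold change was 0.79 ± 0.43. Gli2b, a second Gli factor, had 19.4 and 74.9 CPM, against 149 and 191 CPM. Disp1, needed to release Hedgehog ligand, had 7.59 and 0.945 CPM, against 18.9 and 38.5 CPM. Disp1 and gli2b were therefore lower in both olig2 libraries, while gli1 was higher.

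Retinoic acid genes leaned down, with a median of -0.63. Of 23 tested members 1 was separated above (4.35%, against 5.62% of all symbols) and 6 below (26.1%, against 9.44%). Cyp26a1, a retinoic acid degrading enzyme, had 12.4 and 71.4 CPM in olig2 libraries, against 343 and 245 CPM in dbx1b libraries. Cyp26c1, of the same family, had 57.3 and 46.6 CPM, against 238 and 426 CPM (-2.67 ± 0.47, adjusted p = 0.277). The receptor gene rarga had 22.5 and 14.2 CPM, against 80.8 and 117 CPM. For all 3 both dbx1b libraries were higher. Crabp1b, a cellular retinoic acid binding protein, was the separated member above, with 12.4 and 18.7 CPM, against 3.41 and 2.11 CPM.

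Most FGF and Wnt genes were not separated, and the shares separated below were near the 9.44% of all symbols. The FGF list had 1 of 29 tested members above and 4 below (13.8%), with a median of -0.55. Fgf8a, the FGF ligand of the tailbud and of brain boundaries, had 26.7 and 10.6 CPM in olig2 libraries, against 137 and 126 CPM in dbx1b libraries. The feedback inhibitors il17rd (Sef) and spry4 had 31.0 and 47.5 CPM and 17.0 and 31.7 CPM, against 196 and 219 CPM and 78.1 and 120 CPM. Both olig2 libraries were lower for fgf8a and both inhibitors. The receptor gene fgfr3 had 195 and 237 CPM, against 160 and 113 CPM, whereas the receptor-like gene fgfrl1b had 23.7 and 66.2 CPM, against 130 and 426 CPM. The Wnt list had 1 of 54 above and 7 below (13%), with a median of -0.38. Wnt8a, a ligand that patterns the caudal embryo, had 4.86 and 8.51 CPM, against 93.0 and 161 CPM, and shares its locus with the separately listed wnt8-2, so the pair may count the same reads. Wnt5b, a ligand of convergence movements, had 14.9 and 1.18 CPM, against 135 and 111 CPM. Tcf7l2, a transcriptional effector of Wnt, was the separated member above, with 52.5 and 84.4 CPM, against 8.80 and 22.2 CPM. The receptor gene fzd8b was at 0 in olig2 libraries, against 3.41 and 18.3 CPM. The dbx1b mean was 11.9-fold above the floor, and dbx1b library 1 was closer to it. Of the genes given here, fgf8a, wnt8a and wnt5b also belong to the presomitic mesoderm and tailbud list.

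The BMP list had 1 of 40 tested members separated above (2.5%, against 5.62% of all symbols) and 9 below (22.5%, against 9.44%). Its median was -0.08, so the separated members did not describe the list as a whole. Id3, a target gene of BMP signalling that blocks bHLH factors, had 55.5 and 23.2 CPM in olig2 libraries, against 149 and 188 CPM in dbx1b libraries. Its paralog id1 had 694 and 798 CPM, against 585 and 463 CPM, so both olig2 libraries were above. Smad6a, an inhibitor of BMP signalling, had 11.2 and 20.3 CPM, against 69.7 and 53.7 CPM, and bmpr2a, a receptor, had 6.98 and 5.67 CPM, against 26.4 and 38.8 CPM. The BMP target genes id1 and id3 therefore lay on opposite sides. In the Notch list 0 of 37 members were separated above and 3 below (8.11%, against 9.44% of all symbols), namely her1, her7 and jag1a. The Notch ligand gene jag1a had 10.3 and 18.4 CPM, against 107 and 54.1 CPM. The neural repressor her6 had 146 and 111 CPM, against 62.9 and 83.1 CPM, and lfng, which modifies Notch, had 409 and 485 CPM, against 402 and 233 CPM.

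Hox genes, which give cells their position along the body axis, were separated below about as often as other symbols, and none was separated above. Of 44 tested 0 were separated above (against 5.62% of all symbols) and 4 below (9.09%, against 9.44%), with a median of -0.54. Without the 2-fold requirement 1 lay above in both olig2 libraries (2.27%, against 18.3%) and 14 below (31.8%, against 25.4%). Separated members included both anterior and posterior paralog groups. Hoxa2b, of the hindbrain, had 5.46 and 1.18 CPM in olig2 libraries, against 43.8 and 54.7 CPM in dbx1b libraries (-3.90 ± 0.93, adjusted p = 0.367). Hoxc10a had 8.19 and 4.25 CPM, against 42.0 and 28.0 CPM, and hoxa11b had 1.52 and 0.473 CPM, against 20.1 and 7.59 CPM. Both dbx1b libraries were higher for these genes.

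Markers of other cell types were present in both sorts. The epidermis list had 3 of 32 tested members separated above (9.38%, against 5.62% of all symbols) and 2 below (6.25%, against 9.44%), with a median of 0.48. Its summed levels were 2158 and 1990 CPM in olig2 libraries, against 1741 and 1127 CPM in dbx1b libraries. Its keratin gene krt4 had 672 and 458 CPM, against 407 and 227 CPM, and dlx4b was at 0 in olig2 libraries while krt15 and agr1 were at 0 in dbx1b libraries. The somite and muscle list had 4 of 29 above and 4 below (13.8% each way), with summed levels of 645 and 696 CPM, against 579 and 483 CPM. The summed level of the muscle list was thus slightly higher in both olig2 libraries. The sclerotome list summed to 27.3 and 68.1 CPM, against 176 and 119 CPM, with 1 of 9 above (11.1%) and 4 below (44.4%). The notochord list had 2 of 23 above (8.7%) and 4 below (17.4%), and summed to 2316 and 1899 CPM, against 3008 and 4370 CPM.

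For some lists the 2 olig2 libraries disagreed. The brain list had 7 of 26 tested members separated above (26.9%, against 5.62% of all symbols) and 3 below (11.5%, against 9.44%). Its median of 0.62 was -0.74 without olig2 library 1 and up to 1.29 when another library was left out. Lhx2b, a LIM homeobox gene of forebrain and eye, had 8.19 and 80.4 CPM in olig2 libraries, against 0.718 and 1.41 CPM in dbx1b libraries. Emx1, a homeobox gene of the telencephalon, had 1.21 and 29.3 CPM, against 0.180 and 0 CPM. Olig2 library 2 was far above the other 3 libraries for both. Pax5, of the midbrain and hindbrain boundary, was at 0 in olig2 libraries, against 21.9 and 3.23 CPM. The dbx1b mean was 13.8-fold above the floor, and dbx1b library 2 was closer to it. The labels state that the brain was removed, and brain genes were nevertheless detected in both sorts, with summed levels of 505 and 711 CPM, against 526 and 583 CPM. The hatching gland list had a median of 1.78 that was -1.20 without olig2 library 2, and the blood and vessel list had a median of 1.26 that ranged from 0.13 to 1.81 when a library was left out. The pronephros list had 3 of 13 above and 3 below (23.1% each way).

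Targets of the p53 transcription factor, which responds to DNA damage and other stress, had the lowest median after the presomitic mesoderm and tailbud list. The p53 list, like the others, was chosen with earlier results of these data known, so its counts describe these libraries and are not a test. Of 24 tested members 13 were separated below (54.2%, against 9.44% of all symbols) and 1 above (4.17%, against 5.62%). The median log2 fold change was -1.83. DESeq2 called 7 lower and 0 higher, where it called 1.87% and 1.47% of all symbols. Phlda3, a p53 target in mammals, had 0.303 and 0.709 CPM in olig2 libraries, against 64.7 and 64.0 CPM in dbx1b libraries (log2 fold change -6.93 ± 1.01, adjusted p = 0.170). Mdm2, which marks p53 for degradation, had 60.4 and 58.9 CPM, against 221 and 252 CPM. Cdkn1a (p21), the inhibitor of cyclin-dependent kinases, had 2.43 and 2.60 CPM, against 31.2 and 33.2 CPM. For mdm2 and cdkn1a the 2 libraries of each sort were close to each other. Phlda3 was at or under the floor of 3 fragments in the olig2 libraries, so the size of its fold change is uncertain. The death genes bbc3 (Puma) and casp8 had 1.52 and 0.473 CPM and 0.303 and 1.89 CPM, against 31.4 and 28.7 CPM and 22.8 and 17.4 CPM. Ccng1, a cyclin gene of this response, had 692 and 734 CPM, against 1829 and 1551 CPM. Tp53inp1 was the separated member above, with 14.9 and 23.9 CPM, against 4.67 and 6.75 CPM. Under each alternative the median stayed between -1.99 and -1.61. Depth and mapped share also differed between the sorts, as given above, and their part in this difference was not tested.

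Other stress and housekeeping lists differed less. Of 28 immediate early genes, which dissociation can induce, 1 was separated above (3.57%, against 5.62% of all symbols) and 4 below (14.3%, against 9.44%). Their median was -1.03. Without the 2-fold requirement, both olig2 libraries lay below both dbx1b libraries for 16 (57.1%, against 25.4% of all symbols). They lay above for 2 (7.14%, against 18.3%). Egr1 had 41.0 and 52.5 CPM in olig2 libraries, against 110 and 151 CPM in dbx1b libraries, but ier5l had 359 and 351 CPM, against 99.5 and 98.8 CPM. Egr1 and ier5l thus lay on opposite sides with close values within each sort, while most members of the list lay below. Of 25 heat shock genes 0 were separated above and 5 below (20%, against 9.44% of all symbols), with a median of -0.18. The mitochondrial co-chaperonin hspe1 had 7.59 and 26.7 CPM, against 137 and 58.3 CPM. Cell cycle genes were close: of 37 genes of G1 and S phase 1 was separated above and 0 below, and of 34 genes of G2 and M phase 0 either way, with medians of -0.21 and -0.12. The replication helicase gene gins2 was the separated member, with 111 and 62.9 CPM, against 31.1 and 26.7 CPM. Ribosomal protein genes had 0 of 75 separated and a median of -0.21. Their summed level varied within the sorts as much as between them, at 63331 and 94977 CPM in olig2 libraries, against 119314 and 65148 CPM in dbx1b libraries.

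**Figure D5:**
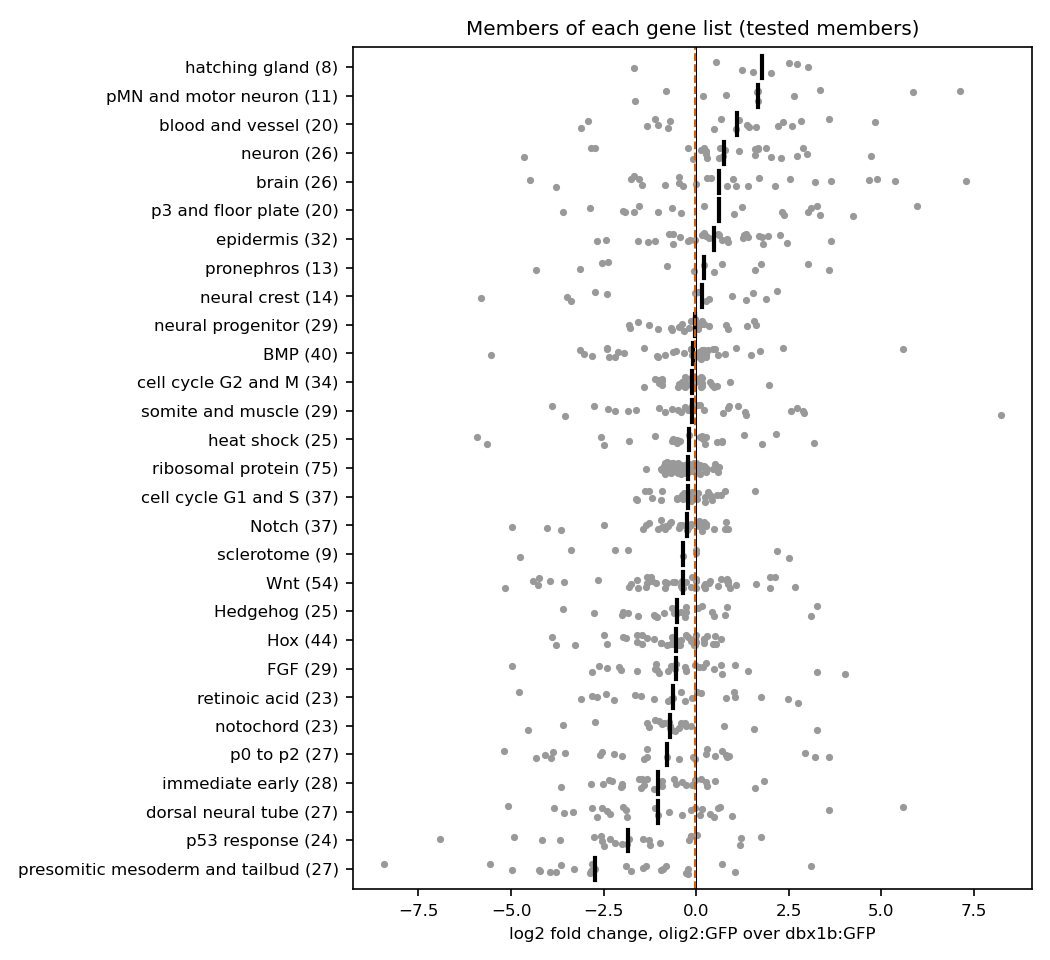
Each grey point is 1 tested member of the gene list named on the left (number of tested members in brackets), at its log2 fold change of olig2:GFP over dbx1b:GFP. Members at 0 in 1 sort are drawn at their bound, or at 0 where the other sort was under the floor. Black bars are list medians and the dashed line is the median of all symbols, -0.02 with bounds. The presomitic mesoderm and tailbud list and the p53 response list have the lowest medians.

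Outside these families the smallest p-values of all named genes belonged to stm and nav2b. Stm (starmaker), which encodes a matrix protein of the otolith in zebrafish, had 145 and 108 CPM in olig2 libraries, against 1418 and 1083 CPM in dbx1b libraries (-3.31 ± 0.36, adjusted p = 0.0617). Nav2b, of the neuron navigator family that binds the cytoskeleton, had 147 and 176 CPM, against 1165 and 2050 CPM (-3.32 ± 0.40, adjusted p = 0.0893). Both missed the threshold of 0.05 in this test, whereas DESeq2 called both, with adjusted p of 7e-13 and 1e-09. edgeR also called both with the replicate block, without dbx1b library 1 and without nkx2.2a library 2, and stm alone on fragments, without olig2 library 1 and without dbx1b library 2. Ptprk, a receptor-type tyrosine phosphatase, had 14.0 and 8.98 CPM, against 126 and 98.7 CPM. Slc7a2, a transporter of cationic amino acids, had no reads in olig2 libraries, against 76.0 and 38.5 CPM. Against the floor it was at least 62.9-fold lower than the mean of the dbx1b libraries. Higher in olig2 libraries were dock11, a guanine nucleotide exchange factor (141 and 106 CPM, against 18.9 and 19.7 CPM), and dbi, an acyl-CoA binding protein (174 and 364 CPM, against 34.3 and 45.4 CPM). The gel-forming mucin genes muc5ac and muc5b, paralogs whose counts may share reads, had 190 and 127 CPM and 90.7 and 140 CPM, against 4.67 and 18.7 CPM and 0.898 and 5.48 CPM. Cfap46, a component of the ciliary axoneme, had 13.4 and 54.8 CPM, against 0.180 and 0.422 CPM. The olig2 libraries of dbi and cfap46 differed from each other by over 2-fold.

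Levels of different genes were compared per length, as RPKM, the reads divided by transcript length in kilobases and by the mapped reads in units of 1000000. The most abundant transcription factors were largely shared: id1 had 574 and 661 RPKM in olig2 libraries, against 451 and 387 RPKM in dbx1b libraries, and sox19a, a SoxB1 factor of neural progenitors, had 357 and 239 RPKM, against 259 and 196 RPKM. Among the top 15 of each sort, nkx6.1 appeared in olig2 libraries (132 and 81.4 RPKM, against 11.3 and 9 RPKM) and tbx6 ranked sixth in dbx1b libraries (40.6 and 21.6 RPKM, against 203 and 235 RPKM). On this scale olig2 had 119 and 67.8 RPKM in its own sort and dbx1b had 105 and 134 RPKM in its own sort. The leading surface gene of the olig2 libraries was alcamb, an immunoglobulin-type adhesion molecule of neurons, with 268 and 252 RPKM, against 128 and 90.2 RPKM. The leading surface genes of the dbx1b libraries were the tetraspanin cd81a, with 202 and 188 RPKM in olig2 libraries, against 279 and 314 RPKM in dbx1b libraries, and N-cadherin (cdh2), with 176 and 154 RPKM, against 235 and 244 RPKM. These 3 surface genes stood among the top 15 of both sorts.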

How the data were processed

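RNA sequencing counts of 6 libraries were used as deposited by the authors: mapped reads per transcript for 54437 transcripts, not normalised. Per the submitters' processing notes, the tools included Bowtie 1.1.1 and FastQC 0.11.3, with genome build GRCz10. The treatment of strand and of multiply mapping reads was not given in the sources used, so near-identical and overlapping genes are uncertain. Every count is even, which was read as both mates of a fragment being counted. A deposited table of normalised values and a table of group means were not used.

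Counts were summed per symbol (30677), and 19129 symbols passed edgeR's filterByExpr (minimum count 10). A gene could pass through 1 sort alone. edgeR 4.0.16 (R 4.3.3) fitted all 6 libraries with TMM scaling and a quasi-likelihood test of olig2 over dbx1b, with Benjamini-Hochberg adjustment over all symbols tested. The common dispersion was 0.779, with 3 residual degrees of freedom. Each SE was derived from the test, as the absolute log2 fold change divided by the square root of its F statistic. DESeq2 1.42.0 was an alternative. CPM values are TMM-scaled. RPKM values were computed from the counts and transcript lengths without TMM. Intervals and floors cover counting error only, and bounds against a floor use the mean of the other sort.

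Symbols named were olig2, dbx1b, nkx2.2a and, among symbols separated by at least 2-fold with 10 CPM or more in the higher sort and no clone-type name, the 10 transcription factors, 10 surface or secreted genes and 5 others with the smallest p in each direction, and up to 3 per gene list and direction. Other list members are given as values. Families were matched by symbol, and 42 transcription factor and 34 surface matches that encode other proteins were left out after the membership was read. The lists were chosen with earlier results of these data known. The fit was also run on counts simulated with its own dispersion estimates, so that run cannot check those estimates. Alternatives were other scalings, filters, fragments, features, libraries, a replicate block and other pseudocounts. A few list members are not reported here.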

Additional observations from a re-analysis of the deposited data

How the results depend on the processing

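The counts of separated and called symbols depended on the test and on the libraries more than on the scaling. edgeR called 0 symbols in the report's fit, with RLE or no composition scaling, with a filter of 1 CPM in 2 libraries (which kept the same symbols), with the 4 libraries alone and with transcripts as features, but 292 without a filter and 2 on fragments instead of reads, and DESeq2 called 639. Calls were 0 to 7 when a library was left out (7 without olig2 library 1, 3 without olig2 library 2, 3 without dbx1b library 1, 6 without dbx1b library 2, 4 without nkx2.2a library 2). With the replicate number as a block 3 symbols were called. Same-numbered libraries did not deviate together (correlations 0.0153, 0.0235 and -0.0142). These correlations cannot show whether same-numbered libraries were handled together. With a pseudocount of 2 CPM 649 symbols were separated above and 1117 below, and with transcripts as features 1623 were above. Leaving out a library gave 1121 to 3306 above and 1833 to 4293 below. The lower ends are without an nkx2.2a library, and without an olig2 or dbx1b library fewer libraries had to lie apart. The olig2 fold change was called without a filter (5.88) and by DESeq2 (5.92), and the dbx1b fold change likewise (-3.90 and -3.86). All 1567 alternative values of the 112 named genes kept their direction. These genes were all separated by at least 2-fold to begin with, so this outcome was close to fixed in advance. Of 406 alternative list medians 21 had the opposite sign. Depth limits the low genes: 3 fragments equal 0.910 and 0.709 CPM in the olig2 libraries, against 0.539 and 0.422 CPM in the dbx1b libraries.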

Other observations

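Genes of muscle, neural crest and pronephros were separated in both directions within each list. The contractile genes actc1a and tnnt1 had 152 and 107 CPM and 26.1 and 27.4 CPM in olig2 libraries, against 52.6 and 51.4 CPM and 5.39 and 2.67 CPM in dbx1b libraries. Foxc1a, a forkhead gene of somite mesoderm, had 17 and 14.7 CPM, against 99 and 46.8 CPM, and desma, a muscle intermediate filament gene, had 0 and 1.89 CPM, against 14.7 and 7.73 CPM. Both olig2 libraries were higher for the first pair of genes and lower for the other pair. In the neural crest, foxd3, an early crest factor, had 3.03 and 1.18 CPM, against 21.2 and 22.3 CPM, whereas snai2, of the same family as snai1a, had 98.6 and 64.1 CPM, against 24.4 and 19.7 CPM. The pronephric genes osr1 and osr2 had 0.91 and 14.9 CPM and 0 and 4.02 CPM, against 33.6 and 48.3 CPM and 16.7 and 19.3 CPM. Hnf1bb, a homeobox gene of kidney tubules, had 14.9 and 20.1 CPM, against 3.59 and 6.75 CPM. Snai1a and snai2 thus lay on opposite sides, as did osr1 and hnf1bb.

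Symbols that carry only a clone-type name differed in balance from the others. Of 6400 such symbols 558 (8.72%) were separated above and 568 (8.88%) below in olig2 libraries, whereas of 12729 other symbols 518 (4.07%) were above and 1237 (9.72%) below. What sets this was not tested.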
